A study of Mus musculus with 65 samples.

Results

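The cerebellum was compared with the medulla oblongata in the same mouse model, by RNA sequencing of 7 libraries out of 65 in the series. These were the 4 cerebellum libraries and 3 medulla libraries of C57BL/6J mice of genotype Atxn1[82Q] at 18 weeks of age, taken from animals that received vehicle and no antisense oligonucleotide. The libraries were chosen by their labels alone, and no expression value entered the choice. In a knockin, the altered sequence sits in the animal's own Atxn1 gene, so every cell type that uses Atxn1 carries it. Atxn1 encodes ataxin-1, and a lengthened glutamine tract in this protein causes spinocerebellar ataxia type 1, a disease of the cerebellum and the brainstem. The series also holds wild type mice on vehicle and knockin mice treated with an oligonucleotide against Atxn1, each with 4 cerebellum and 3 medulla libraries at 18 weeks, and these were used as separate libraries for the same regional comparison. All groups share the strain, and both vehicle groups share the vehicle. The labels give neither the number of knockin alleles nor whether animals were pooled, and they do not say that replicates were separate mice. The p-values below therefore measure the spread between these libraries.

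The cerebellum and the medulla both arise from the hindbrain, but they are built from different neurons. Granule cells, by far the most numerous neurons of the cerebellum, send excitatory parallel fibres to Purkinje cells, whose inhibitory axons are the output of the cerebellar cortex, and Bergmann glia surround the Purkinje cell dendrites. The medulla holds cranial motor nuclei, monoamine neurons, glycinergic and glutamatergic reticular neurons and large myelinated tracts. During development, Hox transcription factors give the hindbrain segments that form the medulla their position along the head-to-tail axis, while the cerebellum arises from the segment in front of the Hox territory, which is patterned by En and other factors. In bulk tissue, more cells of a type and more RNA per cell cannot be told apart, and this holds for each difference below.

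Upstream sequences of genes from both ends of the comparison show which loci carried some of the largest differences. The 250 bases before the annotated start are shown for 4 genes, a pair from the top of the ranking in each direction, read from RefSeq promoters on build GRCm38.p6, each 5′ to 3′ on the gene's own strand. Capitals mark CG dinucleotides, the pair of letters that is depleted from most of the mouse genome and kept in CpG islands. Gabra6 (minus strand, chr11:42321073-42321322) and Sycp1 (minus strand, chr3:102936101-102936350) were among the genes with the largest excess in the cerebellum. Hoxa5 (minus strand, chr6:52204588-52204837) and Hoxb8 (plus strand, chr11:96281655-96281904) were among those with the largest excess in the medulla. These 4 were picked by hand among genes with a single start in the table, no annotated exon in the window and a window that ends at the base before the gene's start in the GENCODE annotation.
Gabra6: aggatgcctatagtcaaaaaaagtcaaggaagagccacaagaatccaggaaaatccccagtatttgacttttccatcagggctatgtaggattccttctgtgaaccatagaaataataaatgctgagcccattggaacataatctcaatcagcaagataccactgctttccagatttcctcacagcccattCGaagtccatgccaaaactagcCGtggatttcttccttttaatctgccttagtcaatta
Sycp1: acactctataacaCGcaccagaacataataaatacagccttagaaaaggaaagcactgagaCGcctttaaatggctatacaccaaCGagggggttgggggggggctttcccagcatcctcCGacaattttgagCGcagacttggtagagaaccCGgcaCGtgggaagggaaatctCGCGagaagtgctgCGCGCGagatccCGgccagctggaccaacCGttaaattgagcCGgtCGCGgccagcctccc
Hoxa5: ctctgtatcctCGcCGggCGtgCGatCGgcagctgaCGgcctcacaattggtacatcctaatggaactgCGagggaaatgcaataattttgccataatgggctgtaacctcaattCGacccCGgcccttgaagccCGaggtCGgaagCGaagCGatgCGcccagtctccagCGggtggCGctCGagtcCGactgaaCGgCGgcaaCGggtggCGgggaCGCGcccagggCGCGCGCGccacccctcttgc
Hoxb8: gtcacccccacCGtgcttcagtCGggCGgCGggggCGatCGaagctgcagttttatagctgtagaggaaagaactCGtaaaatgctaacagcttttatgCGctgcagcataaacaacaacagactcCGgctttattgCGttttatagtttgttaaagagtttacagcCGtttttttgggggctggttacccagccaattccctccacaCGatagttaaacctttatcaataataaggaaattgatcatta
The windows of Gabra6, Sycp1, Hoxa5 and Hoxb8 hold 2, 17, 28 and 12 CG pairs, which describes these 4 windows and no others. A search for CG, which reads the same on both strands, found at least 1 pair in 92.2% of the 27025 genes with a promoter in the table, with a median of 6 per window. Of the 15781 protein-coding genes tested below, 12233 matched a promoter by symbol, which is under 80%, so a comparison of CG content between regional gene sets is void and is not given.

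Total counts ranged from 76219160 to 96766114 in the cerebellum and from 63647030 to 76526783 in the medulla. Genes of the mitochondrial genome took 4.89 to 5.23% of the counts in the cerebellum and 6.25 to 6.45% in the medulla. Values below are CPM, counts relative to the library total after scaling by TMM, a method that assumes that most genes do not differ, and a pair written as mean ± SD is over 4 cerebellum or 3 medulla libraries. Some libraries stood apart. Cerebellum replicate 4 had the highest value of the 4 cerebellum libraries for 635 of the 899 genes that were at least 4-fold higher in the medulla (70.6%), and these genes summed to 4684 CPM there against 2802 to 3080 CPM in the other 3. Medulla replicate 2 had the highest of the 3 medulla values for 339 of the 840 genes at least 4-fold higher in the cerebellum (40.4%). The share was 29.8% for replicate 1 and 29.9% for replicate 3. Medulla replicate 2 also had the lowest values of several serotonin genes. Without cerebellum replicate 4 the strong medullary genes numbered 1056, against 857, 860 and 883 without replicate 1, 2 or 3. Without medulla replicate 2 the strong cerebellar genes numbered 1003. They numbered 987 without replicate 1 and 1013 without replicate 3, so this count did not set replicate 2 apart. Where cerebellum replicate 4 or medulla replicate 2 decided the regional call of a gene named below, the value without it stands beside the result. All libraries matched their region label, with summed Hox genes at 250 to 341 CPM in the medulla and 0.600 to 2.46 CPM in the cerebellum. The sex-linked genes Xist and Ddx3y split the 7 libraries within both regions, 2 and 2 in the cerebellum and 1 and 2 in the medulla. None of the 5 sex-linked genes on the list was called by region, but this mix within regions left the test unable to decide. Scaled by library total alone, Xist was at 1262 and 1174 CPM in cerebellum replicates 1 and 2 and 666 CPM in medulla replicate 1. Ddx3y likewise was at 103 and 103 CPM in cerebellum replicates 3 and 4 and 91.3 and 75.1 CPM in medulla replicates 2 and 3. These differences were not tested.

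Atxn1 itself was measured in every library and was higher in the cerebellum. Its values were 62.1, 64.2, 58.2 and 57.4 CPM in the 4 cerebellum libraries and 50.9, 44.8 and 45.3 CPM in the 3 medulla libraries, so that the regions did not overlap. The log2 difference, cerebellum minus medulla, was 0.36 ± 0.06 (SE), a 1.29-fold excess, with an adjusted p of 0.000196 (edgeR's quasi-likelihood test, Benjamini-Hochberg over all genes tested). An exact two-sided permutation test of the mean CPM over the 35 splits gave p = 0.0286, the smallest value that 4 against 3 libraries allow. In 1 model with all 21 libraries of the 3 arms, the difference was 0.38 and was not called by edgeR (adjusted p = 0.325). An exon of Atxn1 overlaps an exon of a gene on the other strand. The sources used here do not say whether reads were counted by strand, so for the 200 of 806 list genes with such an overlap the reads of the 2 strands may not have been told apart. Itpr1, Pcp2, Zic1, Nefl, Nefm and Glra1 are among them.

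Most genes differed between the regions. Of 19983 genes tested, 13764 (68.9%) passed an adjusted p of 0.05, and 6940 of these (34.7% of genes tested) were higher in the cerebellum and 6824 (34.1%) in the medulla. The median log2 difference over all genes was 0.02. A difference of at least 4-fold with an adjusted p under 0.05, called strong here, was found for 840 genes in the direction of the cerebellum (4.2%) and 899 in the direction of the medulla (4.5%). With library totals in place of TMM the median over all genes moved to 0.12, and the called genes split into 8165 higher in the cerebellum and 5784 higher in the medulla, so small differences depend on the scaling. Protein-coding genes made up 55.2% of the strong cerebellar genes, 75.4% of the strong medullary genes and 79.0% of all genes tested. Pseudogenes were 8.21% of the strong cerebellar and 1.78% of the strong medullary genes, against 5.10% of all genes tested. Transcripts still to be experimentally characterised (TEC) were 14.3% and 2.89%, against 3.77%.

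Sycp1 and Pcp2 had the largest excess in the cerebellum. Sycp1, which encodes a protein of the synaptonemal complex of meiotic cells, had the largest difference among genes of at least 10 CPM, with 19.0, 17.5, 20.7 and 15.6 CPM in the cerebellum and 0, 0 and 0.0973 CPM in the medulla. Its log2 difference was 9.14 ± 0.48. Pcp2, a Purkinje cell protein that binds inhibitory G-protein subunits, had 226, 242, 237 and 205 CPM in the cerebellum and 0.518, 1.15 and 0.551 CPM in the medulla, a log2 difference of 8.29 ± 0.22 (adjusted p = 1.32e-07). Every cerebellar value lay far above every medullary value for both genes. Cnpy1 (7.49), Ltbp2 (7.39), a matrix protein of the latent TGF-beta binding family, Gabra6 (7.18), Ppp1r17 (7.05), a phosphatase inhibitor of Purkinje cells, and the kinase gene Nrk (7.04) followed on the log2 scale. Tbata (6.54), Iltifb (6.50), Gabrd (6.48), Fat2 (6.41), the repressor gene Hes3 (6.34), Cbln3 (6.33), Car8 (6.19) and Crtam (6.05) completed the 15. Iltifb is uncertain, because it is a near-identical copy of the interleukin-22 gene. Among strong genes with the highest CPM in the cerebellum, Itpr1, the calcium release channel of the Purkinje endoplasmic reticulum, had 2785, 2111, 3042 and 2410 CPM against 99.7, 118.96 and 106 CPM. Adcy1, a calcium-stimulated adenylyl cyclase, had 1246 ± 180.1 against 215 ± 22.2 CPM, and Malat1, a nuclear long noncoding RNA, had 958 ± 175 against 187 ± 6.27 CPM.

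The genes with the largest excess in the medulla were Hox genes and genes of cholinergic neurons. The 15 largest held 9 Hox genes, from Hoxb8 to Hoxa4 (-6.73). They also held Slc18a3, Chat, Slc5a7 and Prph, described with the motor neurons, and Lamp5, a membrane protein of some inhibitory neurons. Lamp5 had 1.36, 6.55, 1.14 and 3.91 CPM in the cerebellum and 259, 292 and 282 CPM in the medulla, with a log2 difference of -6.39 ± 0.62. The strong genes with the highest CPM in the medulla had another character, being led by proteins of axons and synapses. Vamp1, a synaptic vesicle fusion protein of fast-firing neurons, had 1397 ± 47.8 CPM in the medulla against 288 ± 39.1 CPM in the cerebellum. Uchl1, a neuronal deubiquitinase, had 656 ± 37.5 against 155 ± 19.5 CPM. Timp2, an inhibitor of matrix metalloproteinases, had 471, 443 and 481 CPM in the medulla and 84.5, 90.4, 90.8 and 166 CPM in the cerebellum, where replicate 4 was the highest. Sv2c, a synaptic vesicle protein, had 447 ± 12.2 against 90.2 ± 11.7 CPM.

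**Figure D1:**
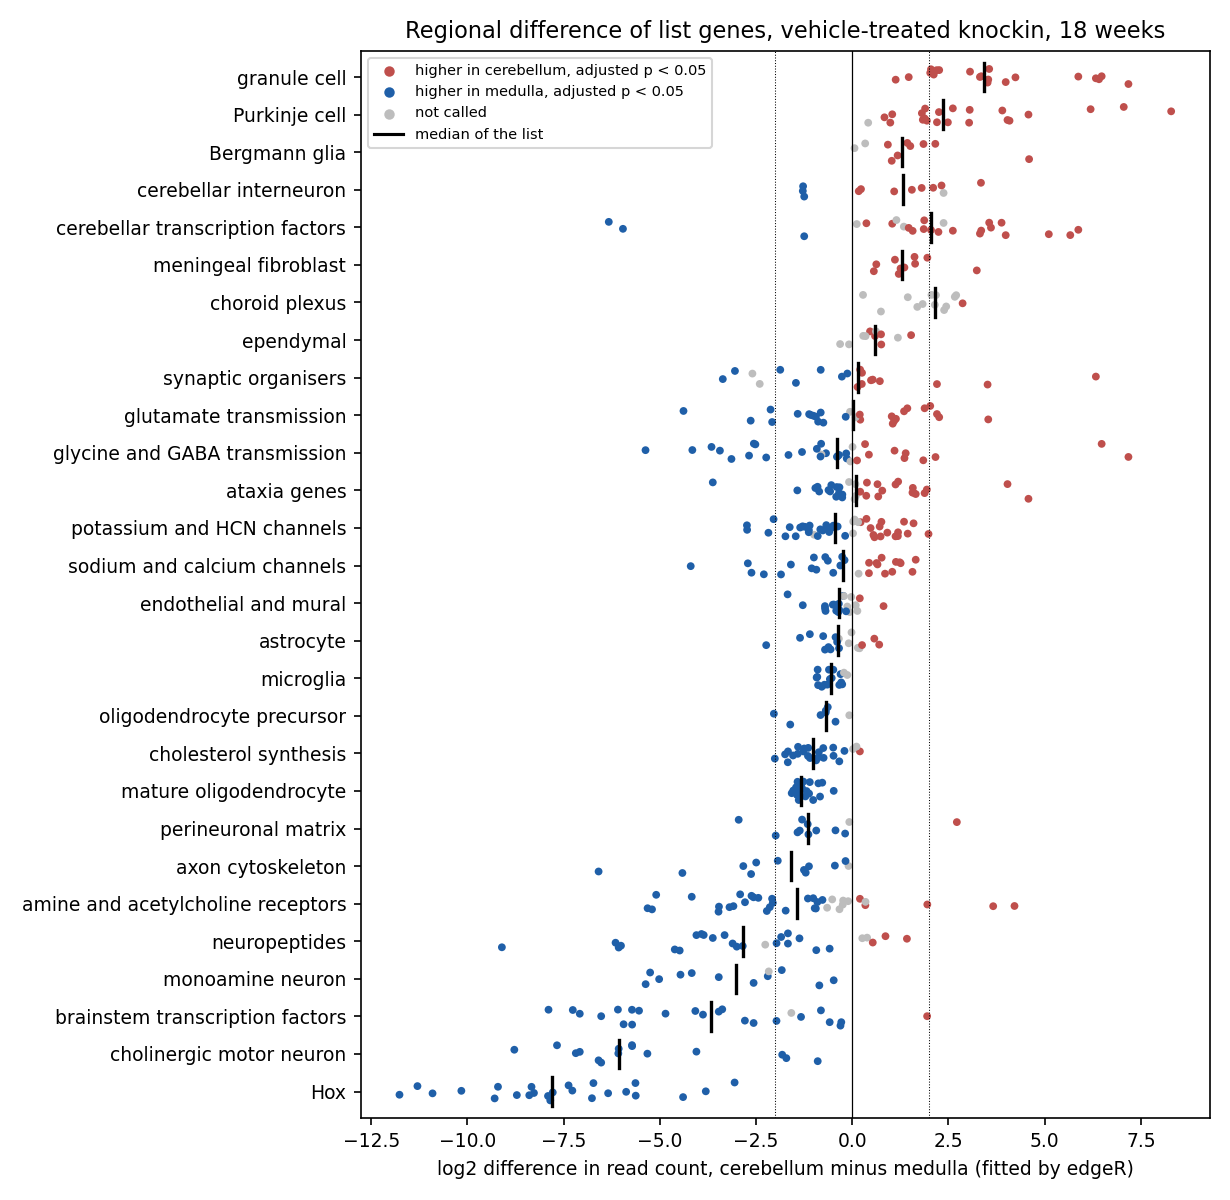
Log2 difference (cerebellum minus medulla, fitted by edgeR) of each tested gene in 28 gene lists, one point per gene, coloured by region where the adjusted p was under 0.05, with a bar at each list's median and dotted lines at 4-fold. The granule cell and Purkinje cell lists lie to the right, the Hox and cholinergic motor neuron lists to the left, and the transmitter and channel lists span 0.

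Hox genes separated the regions more widely than any other list. All 24 of the 39 Hox genes that had enough counts to be tested were higher in the medulla, and all 24 were strong. Their counts summed over the cerebellum libraries were 0 to 72, so most could pass the filter on low counts only through the medulla. That filter largely set this count in advance, and the 4.5% of all genes tested is no yardstick for it. The fitted median log2 difference was -7.82. Hoxb7, Hoxb9 and Hoxc6 had no count in any cerebellum library. With these 3 set at the bound that 3 counts over the region allow, the median was -7.58. Hoxb7 was at least 663-fold, Hoxc6 at least 367-fold and Hoxb9 at least 64.2-fold higher in the medulla. Hoxb8 had 3596 counts in the medulla and 2 in the cerebellum, a ratio of 3270 with a 95% counting interval of 904 to 27007, which covers counting error only. Hoxa5, with 55.2, 39.5 and 48.3 CPM in the medulla and 0.0673, 0.18, 0.0255 and 0.158 CPM in the cerebellum, and Hoxb5, with 68.4, 49.6 and 63.6 against 0.0897, 0.1, 0.0511 and 0.158 CPM, were the Hox genes with the highest level per length in the medulla. Summed over all 39 genes, reads came to 303 CPM in the medulla and 1.49 CPM in the cerebellum.

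The Hox genes tested lay towards the low-numbered end of each cluster, apart from Hoxd13, although Hoxb1 at that end was not tested. The Hoxa genes (chr6:52155590-52260880) were tested up to Hoxa7, and the Hoxb genes (chr11:96194316-96368256) from Hoxb2 to Hoxb9. The Hoxc genes (chr15:102921103-103036852) were tested from Hoxc4 to Hoxc6, and the Hoxd genes (chr2:74668310-74765142) up to Hoxd9, with Hoxd13 as a further member. Coordinates are on GRCm38 and span the listed genes of each cluster. Per length, medullary levels in RPKM (reads per kilobase of exon, otherwise scaled like CPM) were highest in group 5 of the A and B clusters, at 25.4 for Hoxa5 and 21.7 for Hoxb5, and in group 4 of the C cluster, at 9.45 for Hoxc4. The D cluster stayed at or below 2.01 RPKM, the level of Hoxd3. The level of Hoxb8 was 6.88 RPKM, that of Hoxb9 0.205 RPKM, and the 15 untested genes had 0 to 12 counts in the medulla and none in the cerebellum. Hoxd13 was the weakest case, with 0.191, 0.164 and 0.389 CPM in the medulla and 0, 0, 0.0255 and 0.0902 CPM in the cerebellum.

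**Figure D2:**
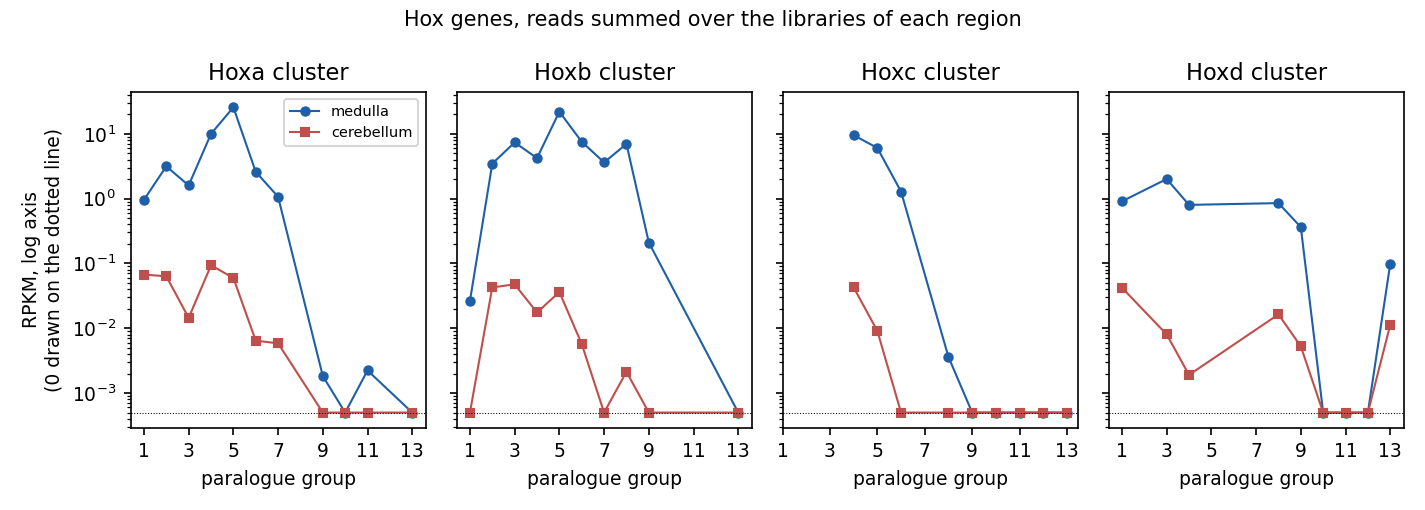
RPKM (log axis) of each Hox gene by paralogue group in the 4 clusters, from reads summed over 3 medulla libraries (circles) and 4 cerebellum libraries (squares), with genes at 0 drawn on the dotted line. Medullary levels peak in groups 4 and 5 of the A, B and C clusters and fall steeply after Hoxa7, Hoxb8, Hoxc6 and Hoxd9, while Hoxd13 lies above 0. Cerebellar levels lie below the medullary ones throughout, apart from genes at 0 in both regions.

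The 7 Hox cofactor genes encode homeodomain partners that bind DNA with Hox proteins. Of these, 4 were higher in the medulla and 3 in the cerebellum, beside 34.1% and 34.7% of all genes tested. Meis2 differed most, with 146, 146 and 150.1 CPM in the medulla and 9.92, 11.1, 6.05 and 24.1 CPM in the cerebellum, where replicate 4 was the highest, and a log2 difference of -3.52 ± 0.48. Meis1 (0.75) was higher in the cerebellum, and Pbx3 (-0.93) in the medulla. The members of this family thus differed in opposite directions, with a median of -0.16.

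Transcription factors of the brainstem followed the Hox genes. Of 24 tested, 22 were higher in the medulla and 16 of these were strong, beside 34.1% and 4.5% of all genes tested. The median log2 difference was -3.67. Tbx20, a factor of cranial motor neurons, had 3.37, 3.97 and 1.77 CPM in the medulla and 0, 0.02, 0 and 0.0225 CPM in the cerebellum, a log2 difference of -7.89 ± 0.52. Lhx4 (-7.26) of motor neuron lineages, Nkx6-1 (-5.94) and Isl1 (-5.72) were among the largest. Mnx1, a motor neuron factor, had 134 counts in the medulla and 2 in the cerebellum, a ratio of 122 with a 95% counting interval of 33.1 to 1016. Gata3 was not called, at 2.59, 1.59 and 3.06 CPM in the medulla and 0.426, 0.24, 0.128 and 2.42 CPM in the cerebellum, where replicate 4 fell within the medullary range. Without that library its log2 difference was -3.17 and was called (adjusted p = 3.93e-05). Tlx3 went the other way, at 4.97, 6.06, 5.02 and 3.62 CPM in the cerebellum and 1.6, 0.903 and 1.31 CPM in the medulla (log2 difference 1.94 ± 0.22).

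Transcription factors of the developing cerebellum were mostly higher there in the adult. Of 25 tested, 18 were higher in the cerebellum, 3 in the medulla and 4 in neither, and 12 and 2 were strong. The median was 2.05. Over all genes tested, 34.7% were higher in the cerebellum and 34.1% in the medulla, and 4.2% and 4.5% were strong. En2, an engrailed homeodomain factor of the midbrain and cerebellum, had 103, 101, 103 and 89.3 CPM against 2.74, 3.17 and 2.72 CPM in the medulla, a log2 difference of 5.11 ± 0.08 (adjusted p = 1.85e-11). Neurod1 (5.87), Barhl2 (5.66), Uncx (3.60) and the zinc finger genes Zic1 (3.56), Zic2 (3.99), Zic4 (2.24) and Zic5 (3.88) were also strong. En1 (1.87) differed less. Gbx2 and Pax8, factors that act at the border of the midbrain and hindbrain in the embryo, were strongly higher in the medulla. Gbx2 had 3.68, 4.2 and 3.89 CPM there and 0, 0.11, 0.0255 and 0.0451 CPM in the cerebellum, and Pax8 had 14.4, 14.7 and 13.7 CPM and 0.157, 0.14, 0.153 and 0.462 CPM. Lhx9 was not called, with 4.32, 4.11, 0.945 and 15.7 CPM in the cerebellum and 2.52, 2.71 and 2.2 CPM in the medulla.

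Granule cell genes were uniformly higher in the cerebellum. All 20 on the list were called in that direction and 18 were strong, against 4.2% of all genes tested, with a median log2 difference of 3.43. Gabra6, the GABA-A receptor subunit that marks granule cells, had 798, 704, 692 and 554 CPM in the cerebellum and 0.887, 9.85 and 3.74 CPM in the medulla. Cbln3, a secreted synapse organiser of granule cells, had 1236, 1101, 1186 and 908 CPM and 4.42, 28.2 and 8.87 CPM, and Fat2, a giant cadherin of parallel fibres, had 579.7, 548, 592 and 444 CPM and 2.32, 11.8 and 5.19 CPM. Medulla replicate 2 was the highest of the medulla libraries for all 3 genes, and the regions did not overlap with it or without it. The smallest differences on the list were those of Rbfox3 (1.13) and Etv1 (1.47), which other neurons also express. The summed CPM of the list was 5595 to 7125 in the cerebellum and 611 to 737 in the medulla.

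Purkinje cell genes behaved in the same way, with a smaller margin. Of 22, 21 were higher in the cerebellum and 13 of them were strong, beside 34.7% and 4.2% of all genes tested. The median was 2.37. Car8, a protein that binds the Itpr1 channel, had 1325, 1132, 1344 and 1104 CPM in the cerebellum and 13.2, 20.9 and 16.2 CPM in the medulla. Calb1, the calcium buffer calbindin, differed by 3.90 ± 0.11, and Homer3, a postsynaptic scaffold, by 4.09 ± 0.15. Plcb4 (0.84), Dner (0.99) and Lhx5 (1.04) differed least among those called. Foxp2 was not called, with 15.6, 14.02, 12.5 and 22.9 CPM in the cerebellum and 15.2, 8.57 and 12.8 CPM in the medulla (adjusted p = 0.231).

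Genes of cerebellar interneurons were divided. Of 12, 8 were higher in the cerebellum and 3 in the medulla, beside 34.7% and 34.1% of all genes tested. The median was 1.32. Kit, a receptor tyrosine kinase of molecular layer interneurons, had 311, 292, 335 and 288 CPM in the cerebellum and 32.2, 28.4 and 29.9 CPM in the medulla, a log2 difference of 3.34 ± 0.07. Tfap2b (2.32) and Tfap2a (2.10), factors of inhibitory neuron lineages, were the other strong genes. Lgi2, a secreted synaptic protein, went against the list with 306, 315 and 301 CPM in the medulla and 132, 128, 119.8 and 127 CPM in the cerebellum, and Nxph1 (-1.29) and Pax2 (-1.25) did so too. Eomes, a marker of unipolar brush cells, was not called, with 4.08, 7.95, 6.16 and 4.61 CPM in the cerebellum and 0.164, 2.84 and 0.357 CPM in the medulla. Without medulla replicate 2, its highest medulla library, the log2 difference was 4.49 and was called (adjusted p = 6.81e-05).

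**Figure D3:**
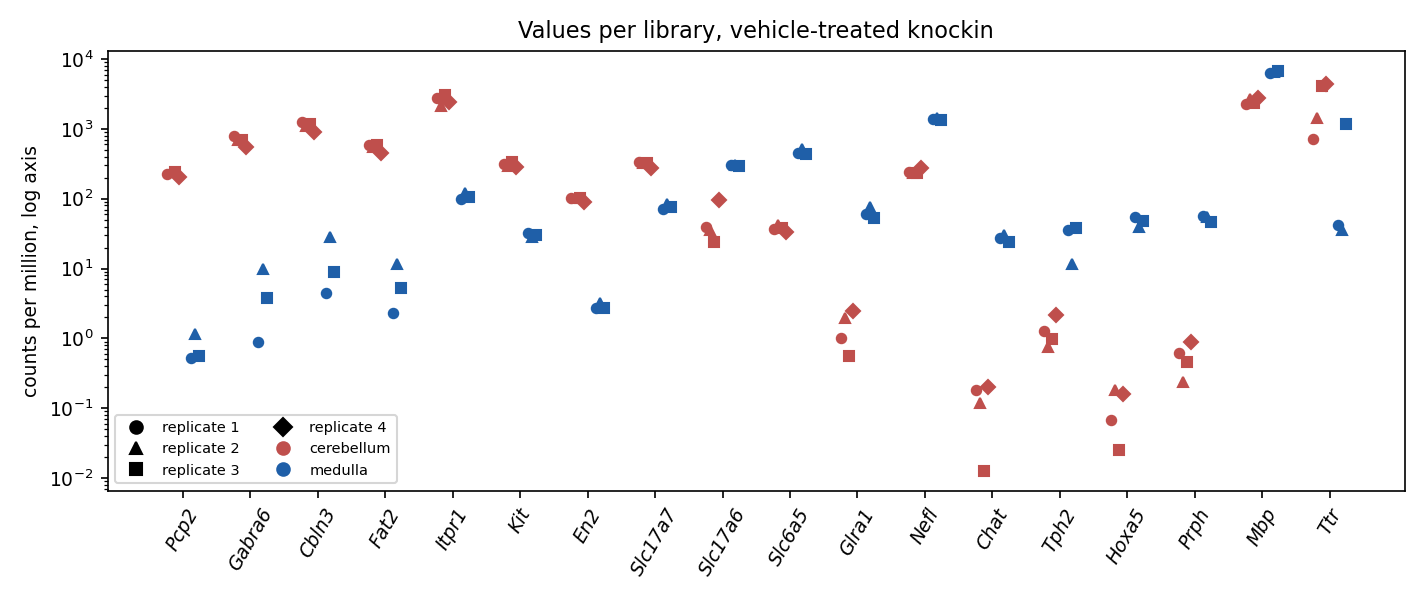
CPM (log axis) of 18 genes in each of the 4 cerebellum and 3 medulla libraries, one symbol per replicate number. The regions separate for each gene plotted except Ttr, whose values spread over more than 10-fold in the medulla. Cerebellum replicate 4 is the highest cerebellum library for Slc17a6, and medulla replicate 2 the lowest medulla library for Tph2.

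Genes of inhibitory transmission differed in both directions. Of 33 genes for glycine and GABA transmission, 20 were higher in the medulla (17 without medulla replicate 2), 10 in the cerebellum and 3 in neither, with a median of -0.40. The shares over all genes tested were 34.1% in the medulla and 34.7% in the cerebellum. Slc6a5, the glycine transporter of glycinergic neurons, had 456, 522 and 439.9 CPM in the medulla and 36.9, 41.7, 37.7 and 33.5 CPM in the cerebellum, a log2 difference of -3.66 ± 0.08. Glra1, the adult glycine receptor alpha subunit, had 61.3, 75.4 and 53.2 CPM and 0.998, 1.99, 0.562 and 2.48 CPM. Glra2 (-1.66), Glra3 (-2.56) and the beta subunit Glrb (-0.83) were higher in the medulla, although Glra3 lost its call without cerebellum replicate 1 or 2 or any 1 of the medulla libraries (adjusted p = 0.0684 to 0.0948) and without the filter on low counts (adjusted p = 0.0520), and Glra4 was not called (-0.80, adjusted p = 0.457). Gphn, the scaffold gephyrin that anchors glycine and GABA-A receptors, had 92.0 and 91.6 CPM on average and was not called. With library totals as the scale it was (0.11, adjusted p = 0.0258).

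The GABA-A receptor subunits were divided between the regions. In the cerebellum, Gabra6 and Gabrd, the subunits of the tonic extrasynaptic receptor of granule cells, led with log2 differences of 7.18 and 6.48, and Gabrb2 (1.36) and Gabra4 (0.33) were also higher. In the medulla, Gabra5 (-4.16), Gabrq (-3.44), Gabre (-3.14), Gabrg3 (-2.68) and Gabra3 (-2.52) were strong, and Gabrg1 (-1.31), Gabrb1 (-0.92) and Gabra2 (-0.40) were higher by less. Gabra5 had 71.0, 73.3 and 72.8 CPM in the medulla and 3.24, 3.16, 1.43 and 8.35 CPM in the cerebellum, with replicate 4 again the highest. The GABA synthesis genes differed from each other. Gad1 was higher in the cerebellum (1.39 ± 0.05) and Gad2 in the medulla (-0.34 ± 0.04), while the vesicular transporter Slc32a1 was close to even (-0.14) and lost its call with library totals as the scale (-0.04, adjusted p = 0.351) and without medulla replicate 1 or 2 (adjusted p = 0.0714 or 0.0598). The glial GABA transporter gene Slc6a11 was higher in the medulla (-2.24 ± 0.32).

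Glutamatergic transmission was divided evenly by number. Of 28 genes, 13 were higher in each region and 2 in neither, with 4 strong in each direction and a median of 0.01. Over all genes tested, 34.7% were higher in the cerebellum and 34.1% in the medulla. The vesicular glutamate transporters marked this division. Slc17a7, the transporter of granule cells, had 332, 323, 329.8 and 275 CPM in the cerebellum and 72.3, 84.2 and 75.6 CPM in the medulla. Slc17a6, the transporter of most brainstem glutamatergic neurons, had 307, 299.9 and 298 CPM in the medulla and 39.0, 35.4, 23.9 and 95.02 CPM in the cerebellum, a log2 difference of -2.64 ± 0.51. Slc17a8, found in some monoamine and other neurons, differed by -4.39 ± 0.31 at a low level. Among NMDA receptor subunits, Grin2c was strongly cerebellar (3.53 ± 0.09), and Grin2b (-0.89), Grin2d (-0.94), Grin3a (-1.01) and Grin3b (-2.12) were higher in the medulla. The obligate subunit Grin1 was not called (0.09). It was called without cerebellum replicate 2 (0.13, adjusted p = 0.0243) and with library totals as the scale (0.19, adjusted p = 0.00293). Among metabotropic receptors, Grm4 (2.26) was higher in the cerebellum and Grm5 (-2.08), Grm7 (-1.12) and Grm8 (-1.42) in the medulla. The AMPA receptor genes Gria1 (1.43), Gria2 (1.05) and Gria4 (1.02) were higher in the cerebellum, and Gria3 was not called (-0.06).

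The cerebellins and C1q-like proteins are secreted bridges between presynaptic neurexins and postsynaptic receptors. Cbln1, which links parallel fibres to Purkinje cells, had 535, 532, 527 and 426 CPM in the cerebellum and 39.9, 55.3 and 37.3 CPM in the medulla, and Cbln3 was also strong in that direction. Cbln4 had 28.2, 29.2 and 25.9 CPM in the medulla and 1.94, 2.92, 0.869 and 4.99 CPM in the cerebellum. Cbln2 had 32.1, 29.8 and 26.8 CPM and 4.02, 3.62, 0.268 and 11.6 CPM and was not called with all libraries (adjusted p = 0.0594), although its values did not overlap. Without cerebellum replicate 4 it was called (-3.46, adjusted p = 0.0224), as it was without replicate 3 (-2.20, adjusted p = 0.0235). The family was thus split, with 2 members higher in the cerebellum and 1 called in the medulla. C1ql2 (-3.05), C1ql1 (-1.87) and C1ql3 (-1.46) were higher in the medulla, and C1ql4 (-2.40, adjusted p = 0.0505) was not called with all libraries but was without cerebellum replicate 4 (-4.12, adjusted p = 3.16e-06). Over the 19 synaptic organiser genes, 10 were higher in the cerebellum and 7 in the medulla, beside 34.7% and 34.1% of all genes tested. Leaving out cerebellum replicate 4 raised the medullary count to 9 and the strong medullary genes from 2 to 4.

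Neuropeptide genes were predominantly medullary. Of 27 tested, 21 were higher in the medulla and 14 were strong, 3 were higher in the cerebellum, and the median was -2.85. Over all genes tested, 34.1% were higher in the medulla (4.5% strong) and 34.7% in the cerebellum. Nmu, the gene of neuromedin U, had 171 counts in the medulla and none in the cerebellum, at least 104-fold higher. Trh, the gene of thyrotropin-releasing hormone, had 29.0, 8.24 and 35.2 CPM in the medulla and 0.258, 0.09, 0 and 1.14 CPM in the cerebellum, with medulla replicate 2 the lowest of its region. Vgf, a precursor of secreted peptides, had 131, 116 and 130.2 CPM and 14.5, 12.7, 9.52 and 21.4 CPM. Sst (-3.00), Tac1 (-3.32), Pdyn (-3.62), Gal (-3.86), Crh (-4.61) and Cartpt (-4.48) were strong, and Penk differed by -0.94. Cck (0.86), Chgb (0.53) and Npff (1.42) were higher in the cerebellum. Vip was not called, with 6.00, 4.5 and 3.49 CPM in the medulla and 0.673, 0.84, 0.0511 and 2.3 CPM in the cerebellum. Without cerebellum replicate 4 it was (-3.12, adjusted p = 0.0172), as it was without replicate 3 (-1.87, adjusted p = 0.0221).

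Cholinergic motor neuron genes were all higher in the medulla. Each of the 15 was called and 12 were strong, beside 34.1% and 4.5% of all genes tested in that direction. The median was -6.07. Chat, which makes acetylcholine, had 27.7, 30.1 and 23.6 CPM in the medulla and 0.179, 0.12, 0.0128 and 0.203 CPM in the cerebellum, and Slc18a3, the vesicular acetylcholine transporter that lies within the Chat gene, had 27.1, 27.8 and 20.6 CPM and 0.0224, 0.16, 0 and 0.0225 CPM. Slc5a7, the choline transporter, had 103, 117 and 85.4 CPM and 0.74, 0.67, 0.319 and 1.04 CPM. The regions were far apart for these 3 genes. The sources used here do not say how reads shared by Chat and Slc18a3 were counted. Prph, an intermediate filament of peripheral and motor neurons (-6.59), Calca (-4.05), the calcitonin gene-related peptide gene, and Chodl (-5.32) were also strong. Ret (-1.82), Ache (-1.71) and Mmp9 (-0.90) differed by less.

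Monoamine neuron genes were higher in the medulla for 11 of 12 tested, 8 of them strong, with a median of -3.02. The shares over all genes tested were 34.1% and 4.5%. Tph2, which makes serotonin, had 35.2, 11.7 and 38.2 CPM in the medulla and 1.28, 0.75, 0.983 and 2.13 CPM in the cerebellum, and Slc6a4, the serotonin transporter, had 21.4, 5.93 and 23.6 CPM and 0.123, 0.09, 0.0511 and 1.51 CPM. Medulla replicate 2 was the lowest medulla library for both. Dbh, which makes noradrenaline, had 7.03, 5.6 and 7.02 CPM and 0.426, 0.02, 0.383 and 0 CPM, while the noradrenaline transporter Slc6a2 was not called, at 1.61, 1.67 and 1.62 and 0.83, 0.02, 0.6 and 0.0225 CPM. The list summed to 141 CPM in medulla replicate 2, to 235 and 242 CPM in the other medulla libraries and to 47.0 to 58.0 CPM in the cerebellum. Th, the enzyme of catecholamine synthesis, differed by only -0.86 ± 0.16.

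Receptors for amines and acetylcholine followed the medulla for the larger part. Of 36, 24 were higher in the medulla, 17 of them strong, and 5 in the cerebellum, with a median of -1.44. Over all genes tested, 34.1% were higher in the medulla (4.5% strong) and 34.7% in the cerebellum. The serotonin receptors Htr5b (-5.32), Htr3a (-5.20), Htr1a (-4.17), Htr7 (-3.48) and Htr2a (-3.46) and the muscarinic receptor Chrm2 (-3.09) were among the largest. The adrenergic receptor Adra2b stood at the other end, with 1.73, 2.09, 1.86 and 1.26 CPM in the cerebellum and 0.0819, 0.0657 and 0.13 CPM in the medulla, and Drd4 (3.66) was also higher in the cerebellum. Both were present at under 5 CPM.

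Most ion channel genes were called, in both directions. Of 44 potassium and HCN channel genes, 23 were higher in the medulla and 16 in the cerebellum, beside 34.1% and 34.7% of all genes tested, none was strong in the cerebellum and 4 were strong in the medulla. Kcnq5 (-2.74), Kcnc2 (-2.73) and the pacemaker channel Hcn4 (-1.63) were higher in the medulla, and Kcnj12 (1.98), Kcnt1 (1.44) and Kcnd2 (1.18) in the cerebellum. Of 28 sodium and calcium channel genes, 15 were higher in the medulla and 12 in the cerebellum, beside the same background. Scn4b, the beta subunit linked to resurgent sodium current, had 412, 471 and 422 CPM in the medulla and 82.2, 75.05, 93.7 and 103 CPM in the cerebellum. Scn9a (-4.20), Scn3a (-2.62) and Scn3b (-2.71) were strong in the same direction, and Scn2a (1.26) and Scn1a (-1.0) differed in opposite directions. Cacna1a, the P/Q-type calcium channel of Purkinje cells, had 399, 345, 383 and 332 CPM in the cerebellum and 115, 116 and 117 CPM in the medulla.

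Genes of the axonal cytoskeleton were higher in the medulla for 11 of 12, with 5 strong and a median of -1.60. Of all genes tested, 34.1% were higher in the medulla and 4.5% were strong there. The neurofilament genes, which set the calibre of large axons, shared this direction. Nefl had 1378, 1451 and 1343 CPM in the medulla and 240.3, 232, 234 and 279 CPM in the cerebellum, and the log2 differences of Nefm and Nefh were -2.83 ± 0.09 and -2.63 ± 0.07. Map1b (-1.94), Thy1 (-1.21) and Tubb3 (-1.26) differed by less, and Mapt was not called (-0.10). Mapt was called by DESeq2 (-0.10, adjusted p = 0.0405) and with upper quartile scaling in place of TMM (-0.13, adjusted p = 0.0209). A block on the number in the column names also gave a call (-0.11, adjusted p = 0.0389). Perineuronal matrix genes showed the same direction for 10 of 12, with a median of -1.15, led by the proteoglycan gene Acan at 19.6, 22.9 and 18.5 CPM in the medulla and 1.86, 2.05, 2.22 and 4.36 CPM in the cerebellum. Tnc, the matrix protein tenascin-C, went against them with 23.5, 18.6, 25.7 and 22.4 CPM in the cerebellum and 2.93, 3.17 and 4.2 CPM in the medulla.

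Genes of myelin and of cholesterol synthesis were higher in the medulla. All 25 mature oligodendrocyte genes were higher in the medulla, where 34.1% of all genes tested were, and none was strong, so that the list had a narrow range from -1.57 to -0.48 around a median of -1.35. Mbp had 6377, 6519 and 6800 CPM in the medulla and 2300, 2709, 2320 and 2744 CPM in the cerebellum. The transcription factors of the lineage, Olig2 (-1.49), Myrf (-1.43) and Sox10 (-1.10), differed by similar amounts. Of 8 genes of precursors and newly formed oligodendrocytes, 7 were higher in the medulla, with Bcas1 (-2.04) and Enpp6 (-1.61) ahead of Pdgfra (-0.64) and Cspg4 (-0.82). Of 24 genes of cholesterol synthesis, a pathway that supplies myelin, 21 were higher in the medulla, with a median of -1.02. Sqle, an early enzyme of the sterol branch, had 109, 101 and 109 CPM there and 29.5, 29.5, 29.9 and 37.5 CPM in the cerebellum, Hmgcs1 differed by -1.41, and Mvd was slightly higher in the cerebellum (0.20), a call lost without cerebellum replicate 2 or 3 or medulla replicate 2 (adjusted p = 0.0628 to 0.0940).

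Glia of the astrocyte family differed by subtype. Of 10 Bergmann glia genes, 8 were higher in the cerebellum, beside 34.7% of all genes tested, with a median of 1.30. Gdf10, a growth factor of Bergmann glia, had 117, 122, 118 and 95.8 CPM in the cerebellum and 6.02, 3.77 and 4.18 CPM in the medulla, and Slc1a3, the glutamate transporter GLAST, had 1131, 1048, 1200 and 1055 CPM and 247, 251 and 248 CPM. Fabp7 (0.34) and Sept4 (0.06) were not called. Fabp7 was called without cerebellum replicate 1 (0.42, adjusted p = 0.0330), by DESeq2 (0.33, adjusted p = 0.0170) and with a replicate block (0.25, adjusted p = 0.00360). It was also called with a block on the number in the column names (0.42, adjusted p = 0.000122). With library totals as the scale, Fabp7 (0.44, adjusted p = 0.0453) and Sept4 (0.16, adjusted p = 0.00536) were both called. Of 18 general astrocyte genes, 13 were called, beside 68.9% of all genes tested (34.1% higher in the medulla and 34.7% in the cerebellum). Of the 18, 10 were higher in the medulla, 3 in the cerebellum and 5 in neither, with a median of -0.37. Slc6a11 was the only strong one, followed by the potassium channel gene Kcnj10 (-1.36), the filament gene Gfap (-1.10) and the glutamate transporter gene Slc1a2 (-0.71). Aqp4 (-0.02) and Gja1 (-0.09) were not called, and Sox9 (0.70) was higher in the cerebellum. The 2 glial glutamate transporters thus differed in opposite directions, and neither sign reversed under the scalings tried.

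Microglia and vessel genes were mostly higher in the medulla and meningeal genes in the cerebellum. Of 18 microglia genes, 16 were higher in the medulla, beside 34.1% of all genes tested. Their median was -0.56, with Ctss at the extreme (-0.93 ± 0.08). Without medulla replicate 2 the count was 13. Of 21 endothelial and mural genes, 15 were called, beside 68.9% of all genes tested (34.1% higher in the medulla and 34.7% in the cerebellum). Of the 21, 13 were higher in the medulla (15 without cerebellum replicate 4 and 11 without medulla replicate 2) and 2 in the cerebellum. The lipid transporter gene Mfsd2a (-1.68) and the pericyte channel gene Abcc9 (-1.29) led those in the medulla. All 10 genes of meningeal fibroblasts were higher in the cerebellum, beside 34.7% of all genes tested, with a median of 1.30. Slc22a6, an organic anion transporter, had 14.9, 16.8, 13.1 and 19.8 CPM in the cerebellum and 1.9, 1.41 and 1.82 CPM in the medulla, and Ptgds, a prostaglandin synthase, had 1272, 1726, 1207 and 1960 CPM and 550.0, 445 and 512 CPM. Of 11 ependymal genes, 5 were higher in the cerebellum, where 34.7% of all genes tested were, and 6 were not called. Without cerebellum replicate 4, 4 were higher in the cerebellum and 1 in the medulla, and without medulla replicate 2, 7 were higher in the cerebellum.

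Choroid plexus genes varied between libraries of one region. Ttr, the thyroid hormone carrier made by the choroid plexus, had 718, 1422, 4107 and 4356 CPM in the cerebellum and 41.4, 36.2 and 1177 CPM in the medulla. The list of 13 summed to 1374, 2298, 6648 and 6998 CPM in the cerebellum and to 649, 674 and 2690 CPM in the medulla. Its median log2 difference was 2.15, yet only Otx2 was called (2.87 ± 0.77, adjusted p = 0.0204), and without medulla replicate 2 no member was (Otx2 at an adjusted p of 0.0711). Without medulla replicate 3, the high medulla library, Ttr was called (6.09, adjusted p = 0.0129). The labels do not say how much choroid plexus each dissection held, and its part in other results was not tested. Immediate early genes, which respond to activity and handling, were called for 8 of 16, below the 68.9% of all genes tested, with 5 higher in the cerebellum, such as Egr4 (1.73), and 3 in the medulla, such as Fosb (-2.23).

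Genes of inherited ataxias did not follow one region. Of 34, 16 were higher in the cerebellum and 14 in the medulla, beside 34.7% and 34.1% of all genes tested, 2 and 1 were strong, and the median was 0.09. Itpr1 (4.58) was strong in the cerebellum, and Cacna1a (1.65) and Cacna1g (1.56) were higher there as well. Pdyn (-3.62), Ppp2r2b (-1.43) and Ttbk2 (-0.96) were among those higher in the medulla. Atxn2 (-0.55), Atxn3 (-0.26) and Atxn10 (-0.62) were higher in the medulla, and Atxn7 (0.38) in the cerebellum like Atxn1. Among 21 tested genes for proteins that bind ataxin-1, 10 were higher in the cerebellum and 7 in the medulla, beside the same background. The repressor gene Cic, the main nuclear partner of ataxin-1, had 172 ± 8.81 CPM in the cerebellum and 125 ± 4.17 CPM in the medulla (0.47 ± 0.05), and its relative Atxn1l differed by 0.31 ± 0.05. Rora (1.83) was the largest cerebellar difference and the 14-3-3 gene Ywhag, at 1327, 1268 and 1280 CPM in the medulla and 559, 526, 504 and 590.0 CPM in the cerebellum, the largest medullary one.

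Housekeeping groups showed small differences. Of 79 genes of cytosolic ribosomal proteins, 20 were higher in the cerebellum, 29 in the medulla and 30 in neither, with a median of -0.02, beside 34.7% and 34.1% of all genes tested in the 2 directions. Many ribosomal protein genes have near-identical pseudogenes, so single members are uncertain. Of 83 nuclear genes of oxidative phosphorylation, 23 and 31 were higher in the 2 regions, with a median of -0.04. All 13 protein-coding genes of the mitochondrial genome were called, 8 higher in the medulla and 5 in the cerebellum. mt-Co1 (-0.48) and mt-Nd6 (2.31) were examples of each, and mt-Nd6 is the one encoded on the other strand. Nuclear copies of mitochondrial sequence make these values uncertain.

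The same regional comparison was then made in wild type mice on vehicle, whose libraries are not shared with the knockin comparison. Of 19633 genes tested, 12416 (63.2%) were called, 931 strong in the cerebellum (4.74%) and 1128 strong in the medulla (5.75%). Of the 840 strong cerebellar genes of the knockin, 750 were tested in wild type, and 698 were called there in the same direction and none in the other. Of the 899 strong medullary genes, 843 were tested, 831 were called in the same direction and 1 in the other. The 623 cerebellar genes strong in both genotypes were 74.2% of the knockin list and 66.9% of the wild type list, and the 780 medullary genes were 86.8% and 69.1%. Across the 19372 genes tested in both, the log2 differences had a Pearson correlation of 0.928, given as a description since genes are not independent. The strong medullary genes of the knockin had a median of -2.81 there and of -3.44 in wild type. Wild type medulla replicate 3 had 15.1 CPM of Atxn1 against 34.9 and 32.8 CPM in the other 2, and replicate 2 differed in its sex-linked gene from other tissues that carry the same number in their column names. Without replicate 2, 12953 genes were called, and without replicate 3, 11861.

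In knockin mice treated with the oligonucleotide, 8600 of 20508 genes were called (41.9%), 850 strong in the cerebellum (4.14%) and 954 strong in the medulla (4.65%). Of the 840 strong cerebellar genes on vehicle, 798 were tested after treatment and 682 were called in the same direction, and of the 899 medullary genes 873 were tested and 834 called in the same direction. None was called in the opposite direction. The 596 shared strong cerebellar genes were 71.0% of the vehicle list and 70.1% of the treated list, and the 743 shared medullary genes were 82.6% and 77.9%. Atxn1 in the treated libraries was 31.7, 39.2, 19.8 and 49.2 CPM in the cerebellum and 13.5, 39.2 and 21.6 CPM in the medulla, so cerebellum replicate 4 and medulla replicate 2 stood nearest to the vehicle values of their regions. Without cerebellum replicate 4 the number of called genes was 7299, without medulla replicate 2 it was 6589, and without cerebellum replicate 3 it was 11870.

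Whether the regional difference itself depended on genotype was tested by an interaction term over the 14 vehicle libraries. Of 20863 genes, 457 (2.19%) were called. For 369 (1.77%) the cerebellum minus medulla difference was lower in the knockin, and for 88 (0.422%) it was higher. The mean of the knockin differed from wild type by more in the cerebellum than in the medulla for 349 of the 369 genes and for 80 of the 88. The median log2 ratio of knockin to wild type over the 369 genes was -0.50 in the cerebellum and 0.07 in the medulla, and 331 of the 369 were higher in the cerebellum than in the medulla of wild type mice. The interaction that chose these genes used the same values, so the counts and medians describe the genes and are not separate evidence. DESeq2 called 825 genes, 597 lower and 228 higher in the knockin. Without wild type medulla replicate 2 edgeR called 666, and without replicate 3 it called 571. Without knockin medulla replicate 1 or 2 it called 302 or 295.

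The 6 genes with the smallest p in this test showed the pattern. Myo15, an unconventional myosin of hair cells, had 0.617 ± 0.164 CPM in the knockin cerebellum, 2.86 ± 0.239 in the knockin medulla, 6.79 ± 0.987 in the wild type cerebellum and 2.14 ± 0.24 in the wild type medulla, an interaction of -3.88 ± 0.26 on the log2 scale (adjusted p = 8.57e-07). Its regional order was opposite in the 2 genotypes. Fam163b went the other way, with 37.3 ± 5.83 CPM in the knockin cerebellum and 8.49 ± 0.843 in that of wild type, against 41.5 ± 1.7 and 42.8 ± 2.17 in the medulla. Its regional difference, -2.32 on the log2 scale in wild type, was -0.17 in the knockin. Grm4, a presynaptic glutamate receptor of granule cells, had 131 ± 12.8 and 346 ± 5.54 CPM in the cerebellum of knockin and wild type, against 27.2 ± 0.936 and 29.1 ± 1.99 in the medulla. Fam107b (-0.93), the calcium sensor gene Hpcal1 (-0.97) and the mucin gene Muc3a (-2.56) completed the 6.

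Among the gene lists, the Purkinje list held the most called interactions, 10 of 22, all towards a smaller cerebellar excess in the knockin, with a median of -0.73 against 0.00 over all genes tested. They included Rgs8 (-1.10), Homer3 (-0.93) and Inpp5a (-0.85). These genes were still higher in the cerebellum of the knockin. The Bergmann glia list held 3 of 10, with Gdf10 at -0.95, and the granule cell list 3 of 20, with Chn2 at -0.51 and Rbfox3 at -0.32 beside Grm4. Barhl2 (-1.52) was the largest called interaction among the transcription factor lists. None of the Hox, cholinergic, mature oligodendrocyte, cholesterol or microglia genes was called. Of all genes tested 2.19% were, a share at which lists of this size hold few calls. For Aldoc, an enzyme of glycolysis found in Purkinje cell stripes and astrocytes, the sign of the regional difference changed, from 0.44 in wild type to -0.34 in the knockin, with an interaction of -0.76 ± 0.11 (adjusted p = 0.000937). The signs also differed for Th, at 0.52 in wild type (adjusted p = 0.0288) and -0.86 in the knockin, with an interaction of -1.35 ± 0.27. Chrnb4 (-2.05) had a larger medullary excess in the knockin, and Onecut2 (1.24) a smaller one. The knockin difference of Onecut2 itself, -0.31, lost its call with any 1 of 5 of the 7 libraries left out (adjusted p = 0.0593 to 0.153), cerebellum replicate 4 and medulla replicate 2 among them.

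**Figure D4:**
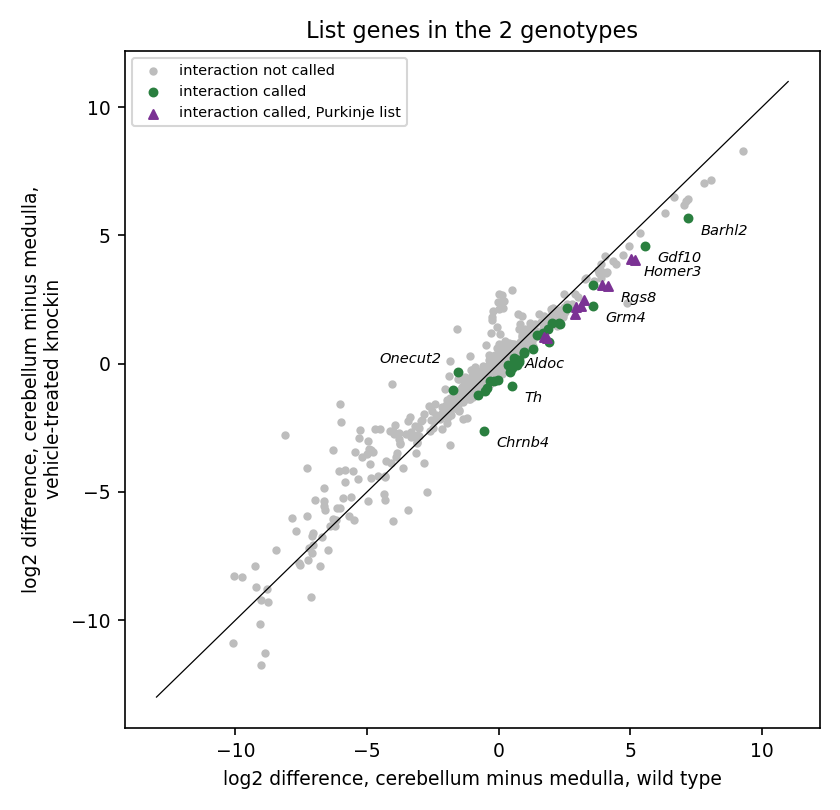
Log2 difference between cerebellum and medulla of 773 list genes in wild type (horizontal) and vehicle-treated knockin (vertical), with the line of equal values. The 44 genes with a called interaction are coloured, 10 of them from the Purkinje list, and 42 of the 44 lie below the line.

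The interaction with treatment, over the 14 knockin libraries, called 1 of 21168 genes (0.00472%). This was Muc3a, with 5.51 ± 0.836 CPM in the cerebellum on vehicle and 17.4 ± 2.43 after the oligonucleotide, against 2.96 ± 0.242 and 2.78 ± 0.269 CPM in the medulla, an interaction of -1.75 ± 0.21 (adjusted p = 0.0205). An unadjusted p under 0.05 was found for 615 genes, and DESeq2 called 3. With 1 library left out, edgeR called none in 9 of 14 fits, among them all 6 that left out a medulla library. Omd (1.31), Gcnt4 (0.89), Slc6a20a (1.07), Sla (0.90) and Necab3 (-0.73) had the next smallest p, and none of them was called. A p that misses the threshold does not show that the regional difference was the same with and without the oligonucleotide.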

How the data were processed

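Total RNA from dissected cerebellum and medulla was sequenced on stranded Illumina libraries, per the labels' protocols. The authors deposited 1 table of raw read counts per Ensembl gene for 65 libraries. The submitters' processing notes name CASAVA 1.8, HISAT2 2.0.2, GRCm38, featureCounts from Subread, R 3.3.3 and DESeq2 1.14.1. The strand setting and the treatment of read pairs are not given in the sources used here. Between 71.1 and 74.8% of counts from 1 to 20 in the 7 libraries were even, so counts may include both mates, and intervals from counts cover counting error only.

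GENCODE vM21 named 49411 of 49670 identifiers, and the unnamed 259 held 0.0346% of counts. Columns were matched to samples by their names. Genes kept by filterByExpr (minimum count 10) were tested with edgeR 4.0.16 (TMM, robust quasi-likelihood, R 4.3.3) on each comparison's own libraries, with Benjamini-Hochberg adjustment over all genes tested. Called means an adjusted p under 0.05. In simulated counts with known changes among 19983 genes, 71.6, 92.5 and 100% of genes changed 1.5-fold, 2-fold and 4-fold were recovered, and 0.0859% of unchanged genes were called. Only 67, 67 and 66 genes were changed, in both directions, so TMM's assumption held there. In the real comparison 68.9% of genes were called, so the simulated rates do not measure its errors. Alternatives used DESeq2 1.42.0, other scalings, no filter, left-out libraries and a replicate block. The floor for a count of 0 was 3 counts over the region, and counting intervals were 95% exact binomial.

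The members and gene lists were chosen with earlier results of these data known. Genes were named by rule: Atxn1, the 15 largest called differences in each direction with at least 10 CPM in the higher region and no overlap, the 10 strong genes in each direction with the highest CPM, list members with the largest difference in each direction or against their list, whole small families, and the 6 smallest p in each interaction. Genes with provisional symbols entered the counts only, and some genes that the rule names are not reported here. Equal replicate numbers did not pair the libraries. The correlations of same-numbered deviations were 0.217, -0.0839 and 0.119, and those of libraries sharing a number in the column names were 0.214, 0.0907 and 0.176.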

Additional observations from a re-analysis of the deposited data

Results flagged for a closer look

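Among the 236 named genes, 24 had 1 cerebellum library far from the other 3, with a gap to the nearest library above the 95% limit of Dixon's test for 4 values. Chance gives such a gap in about 1 in 20 groups. Replicate 4 was the high library for Acan (4.36 CPM), C1ql4 (0.699 CPM), Cartpt (0.766 CPM), Gabre (1.07 CPM) and Gabrg1 (28.9 CPM). It was high as well for Gata3 (2.42 CPM), Grin3a (49.5 CPM), Htr2a (1.38 CPM), Htr7 (3.93 CPM) and Pax8 (0.462 CPM). It was high as well for Slc6a4 (1.51 CPM), Sqle (37.5 CPM), Timp2 (166 CPM) and Vamp1 (346 CPM). Replicate 4 was the low library for Cbln1 (426 CPM), En2 (89.3 CPM), Gabrd (155 CPM), Slc17a7 (275 CPM) and Zic1 (632 CPM). It was low as well for Zic5 (51.0 CPM). Hoxa7 was highest in replicate 2, at 0.0600 CPM. Hoxb8 was highest in replicate 1, at 0.0224 CPM. Mnx1 was highest in replicate 1, at 0.0224 CPM. Slc18a3 was highest in replicate 2, at 0.160 CPM. Hoxb8 and Mnx1 had counts in a single cerebellum library each. Medulla groups of 3 were not examined in this way.

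The regional difference itself differed between groups, by a called interaction, for 26 of the named genes. Some genes were named for their interaction, among them the 6 with the smallest p in each. The count is therefore a listing and not a rate to set against the 2.19% of all genes called in the genotype interaction. Values are the log2 difference, cerebellum minus medulla, in the vehicle-treated knockin less that in the other group. Against wild type it was lower for Myo15 (-3.88), Muc3a (-2.56), Chrnb4 (-2.05), Barhl2 (-1.52), Th (-1.35) and Grm4 (-1.30). Lower values were also found for Rgs8 (-1.10), Hes3 (-1.04), Cck (-1.01), Hpcal1 (-0.97), Gdf10 (-0.95) and Fam107b (-0.93). The difference was lower too for Homer3 (-0.93), Inpp5a (-0.85), Dner (-0.85), Aldoc (-0.76), Cacna1g (-0.73) and Lhx5 (-0.66). Further lower values were those of Necab3 (-0.63), Chn2 (-0.51), Slc1a3 (-0.43), Thy1 (-0.40) and Rbfox3 (-0.32). Against wild type it was higher for Fam163b (2.18), Gcnt4 (0.97) and Onecut2 (1.24). Against the treated knockin it was lower for Muc3a (-1.75). The parts of genotype, library and dissection in these values were not tested separately.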

How the results depend on the processing

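In the vehicle-treated knockin the number of genes called by region, 13764 of 19983, was 13671 with DESeq2, 14250 of 30589 without the filter on low counts and 12953 to 13660 with 1 library left out. Tested against a difference of more than 2-fold, 2775 genes were called, 260 of them on the gene lists, against 625 list genes otherwise. Library totals as the scale gave 13949 calls, split 8165 to 5784. The Atxn1 difference was 0.36 when tested against 2-fold (adjusted p = 1), 0.38 with all 21 libraries in 1 model (adjusted p = 0.325) and 0.34 to 0.44 with 1 library left out. Of the 235 named genes tested, 209 kept their direction and their side of the threshold over 18 settings, leaving aside the 2-fold test that 52 did not pass, and none reversed. DESeq2 called C1ql4, Cbln2, Eomes, Fabp7, Mapt, Ttr and Vip (adjusted p = 0.0162 to 0.0408), which edgeR did not call with all libraries.

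In wild type the count was 12505 with DESeq2 and 11329 to 12953 with 1 library left out. In the treated knockin it was 9607 with DESeq2, 8361 without the filter and 6322 to 11870 with 1 library left out. The genotype interaction had 457 calls, 825 with DESeq2 and 295 to 666 with 1 library left out. The treatment interaction had 1 call, 3 with DESeq2 and 0 to 1 with 1 library left out. The cause of these changes was not tested.

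A replicate block on the shared numbers 1 to 3 called 13381 genes in the vehicle-treated knockin against 13660 without the block on the same 6 libraries, 10478 in wild type and 5347 in the treated knockin. A block on the number that ends the column names, an alternative chosen after seeing the data, called 13071 against 13056. Under this block Cbln4, Grm5, Htr1a, Kcnc2, Slc17a6, Sst, Tac1 and Glra3 had adjusted p of 0.0528, 0.0722, 0.0655, 0.0592, 0.0570, 0.0822, 0.0746 and 0.149, and without it on the same 6 libraries Glra3 alone of these 8 was not called (0.0882). That number is not said to mark an animal, although the libraries that share it expressed the same sex-linked gene for 19 of 21 shared numbers in the series. Depth limits genes at a few counts, such as the 15 untested Hox genes, where a difference was not detectable.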

Other observations

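Interferon response genes, which rise with antiviral and inflammatory signalling, showed no common direction between the regions of the vehicle-treated knockin. Of 20 tested, 4 were higher in the cerebellum, 6 in the medulla and 10 in neither, with a median log2 difference of -0.07. Over all genes tested, 34.7% were higher in the cerebellum and 34.1% in the medulla.

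In the genotype interaction, no choroid plexus, microglia or ependymal gene was called, beside 2.19% of all genes tested, a share at which such lists hold few calls. The 13 choroid plexus genes had a median of 2.15, the 18 microglia genes a median of 0.51 and the 11 ependymal genes a median of 0.50, against 0.00 over all genes tested. Lhx9 was called in wild type with a regional difference of -1.58 (edgeR adjusted p = 0.00106), while in the knockin the difference was 1.34 and was not called.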
